A study of Mus musculus with 12 samples.

Results

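Fatty acid elongases and desaturases were followed in mouse white adipose tissue through every probe set that the platform annotation gives to Elovl1, Elovl3, Elovl5, Elovl6, Scd1, Scd2, Fads1, Fads2 or Fads3 and to no other gene. These 9 genes had 23 probe sets, of 45101 on the array. Of the 23, 22 reached a scaled intensity of 100 on at least 2 of the 12 arrays and were tested. The probe set left out was 1443838_x_at of Fads2. Elovl1 had 4 probe sets, Elovl6, Scd2, Fads2 and Fads3 had 3 each, Elovl5, Scd1 and Fads1 had 2 each, and Elovl3 had 1.

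The study compared fat of mice fed CLA with that of control mice fed LA, taken at 4, 12 and 24 h. In work on dietary fat CLA usually stands for conjugated linoleic acid and LA for linoleic acid. The labels spell out neither, call the tissue RP without expanding it, give no strain, sex or age, and leave the starting point of the hours open. There were 6 groups of 2 arrays, and an array held the RNA of a pool of 5 mice, so n is 2 pools per group throughout. Nothing states how the animals were assigned to pools, and p-values measure the spread between these pools. Each array was scaled to a trimmed mean of 500, and 44.6% to 49.7% of its probe sets reached 100. One CLA pool of 4 h, replicate 1, gave 27.4 for 18S ribosomal RNA against 704 to 1432 on the other 11 arrays. The typical standard deviation between the pools of a group was 0.35 log2 units for CLA at 4 h and 0.17 to 0.23 for the other groups. The 3′ over 5′ signal of Actb, a measure of RNA integrity, ran from 3.80 to 6.41 at 12 h and from 2.35 to 4.13 at 4 and 24 h. All 8 adipocyte markers on the array were above 100 in both pools of every group.

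Fatty acid synthase makes mainly palmitate, and the enzymes of the ELOVL family lengthen such chains in the endoplasmic reticulum by adding carbons from malonyl-CoA. The SCD enzymes put the first double bond into saturated chains and make palmitoleate and oleate, monounsaturated acids of stored fat. The FADS enzymes act further toward the front of the chain, and with ELOVL5 they turn linoleic acid into arachidonic acid. In adipose tissue several of these genes are known targets of the lipogenic factors SREBP-1c and LXR.

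The reference table of promoters held windows of 5 of the 9 genes, and for 3 of them 1 window ended at the gene's start. These 3 are shown because they place an elongase that passed the diet test on both of its bright probe sets, Elovl6, beside an elongase with no probe set past it, Elovl5, and a desaturase with 1 past it, Fads2. Each sequence is the 250 bases before the start, from RefSeq on GRCm38.p6, written 5′ to 3′ along the gene's strand. Capitals mark matches on either strand to 4 motifs. These were the sterol response element TCACNCCAC, then the CCAAT box, then the E-box CACGTG, and last the GC box with the letters GGGCGG. None of the motifs overlapped another in these windows.

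Elovl6 promoter, chr3:129532136-129532385, plus strand: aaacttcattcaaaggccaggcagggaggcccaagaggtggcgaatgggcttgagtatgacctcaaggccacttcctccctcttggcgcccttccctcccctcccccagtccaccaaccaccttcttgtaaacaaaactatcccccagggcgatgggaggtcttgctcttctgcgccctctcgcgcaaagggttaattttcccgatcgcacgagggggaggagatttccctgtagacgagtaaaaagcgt

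Elovl5 promoter, chr9:77917115-77917364, plus strand: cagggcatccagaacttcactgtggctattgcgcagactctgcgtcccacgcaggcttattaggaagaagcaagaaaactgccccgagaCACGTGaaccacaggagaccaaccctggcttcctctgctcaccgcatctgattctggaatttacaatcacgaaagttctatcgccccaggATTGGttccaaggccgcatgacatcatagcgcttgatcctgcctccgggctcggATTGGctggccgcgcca

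Fads2 promoter, chr19:10101504-10101753, minus strand: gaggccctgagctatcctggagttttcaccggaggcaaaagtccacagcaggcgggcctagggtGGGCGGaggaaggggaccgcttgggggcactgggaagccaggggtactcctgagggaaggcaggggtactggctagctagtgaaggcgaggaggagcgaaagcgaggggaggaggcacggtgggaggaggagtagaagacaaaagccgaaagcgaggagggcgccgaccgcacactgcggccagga

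The Elovl6 window held none of the 4 motifs. The Elovl5 window held CACGTG at 161 to 156 bases before the start, and CCAAT on the reverse strand at 71 to 67 and at 17 to 13 bases. The Fads2 window held GGGCGG at 186 to 181 bases. Among the 32851 promoter windows of the same length, 1.05% held the sterol response element, 33.9% the CCAAT box, 6.02% the E-box and 32.7% the GC box. The absence of a match says only that these letters are not in this window. Of the 9 genes, 6 lie on chromosome 19, where Fads3, Fads2 and Fads1 are neighbours and Scd2 and Scd1 are separated by Scd4 alone among protein-coding genes. Elovl6 is on chromosome 3, Elovl1 on chromosome 4 and Elovl5 on chromosome 9.

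At 24 h, 5 of the 9 genes had a probe set that passed the test as lower in CLA than in LA, and no probe set passed as higher. These were 8 of the 22 tested probe sets, where 14.4% of all tested probe sets passed in either direction and 7.38% passed as lower. Elovl6 was the lowest of them, at 9.71-fold and 13.4-fold below LA on its 2 bright probe sets, and Scd2 followed at 2.83-fold to 5.70-fold on its 3 probe sets. Scd1, Elovl3 and Fads2 were lower by smaller amounts and on 1 probe set each. With each gene by its brightest probe set, 3 of the 9 passed, against 2740 of 12593 genes in either direction. At 12 h only Elovl6 and Scd2 had passed, on 5 probe sets, all lower, against 2.09% of all in either direction and 1.05% lower. At 4 h no member had, against 0.0424% of all. Between the times no member passed in the LA pools.

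**Figure D1:**
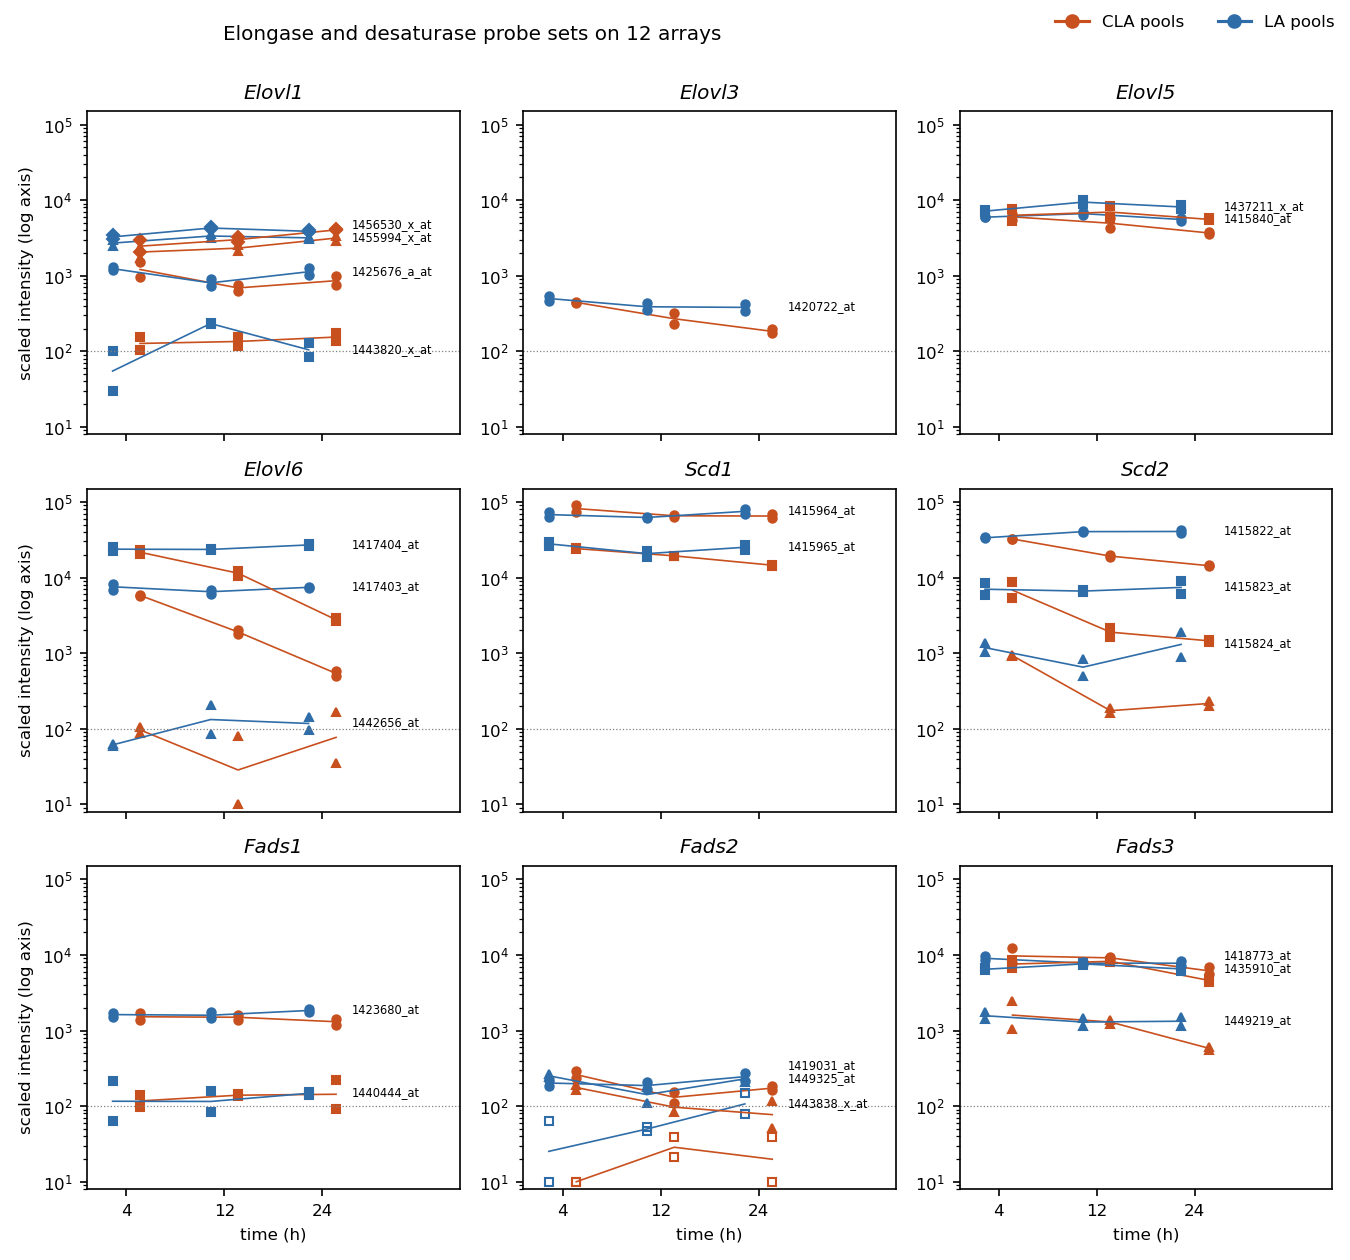
Scaled intensity (log axis) of the 23 probe sets on the 12 arrays, 1 panel per gene, against time in h, with times evenly spaced; points are single pools, symbols are probe sets, lines join the geometric means of the 2 pools of a diet, values under 10 are drawn at 10, and open symbols mark the probe set that was not tested. The CLA pools of Elovl6 and Scd2 leave the LA pools at 12 h and lie lowest at 24 h for Elovl6, while the upper Scd1 probe set stays near the top of every array.

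Elovl6 lengthens palmitate to stearate and also lengthens palmitoleate. On its brighter probe set, 1417404_at, the CLA pools gave 20326 and 22970 at 4 h, 12374 and 10513 at 12 h, and 2883 and 2650 at 24 h. The LA pools gave 22453 and 25047 at 4 h, 22934 and 24117 at 12 h, and 26512 and 27448 at 24 h. The diets overlapped at 4 h, and at both later times each CLA pool was below each LA pool. On the other bright probe set, 1417403_at, the CLA pools gave 5859 and 5751, then 2041 and 1781, then 588 and 495. Its LA pools gave 8329 and 6833, then 6890 and 6114, then 7456 and 7378. On this probe set the CLA pools were the lower ones at every time, and the 2 pools of 24 h were the lowest of the 12 arrays.

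At 12 h the CLA pools were lower by a log2 difference of -1.76 ± 0.18 (SE) on 1417403_at, which is 3.38-fold (limma, adjusted p = 0.00552). On 1417404_at the difference was -1.04 ± 0.16, or 2.06-fold (limma, adjusted p = 0.0257). At 24 h the differences were -3.74 ± 0.18 and -3.28 ± 0.16 on the log2 scale (limma, adjusted p = 7.31e-05 and 9.37e-05). Counted from the lowest difference, these were places 14 and 28 among the 25922 probe sets tested at 24 h. At 4 h they were -0.38 ± 0.18 and -0.13 ± 0.16, with adjusted p of 0.739 and 0.937 in limma, and did not pass. The call of 1417404_at at 12 h was lost without any 1 of the 4 arrays of 12 h or of the CLA pools of 24 h, with differences of -1.16 to -0.93 and adjusted p of 0.0567 to 0.1499 in limma. The calls of both probe sets at 24 h, and that of 1417403_at at 12 h, held without any single array. The remaining Elovl6 probe set, 1442656_at, was dim, from -21.4 to 203 over the arrays, and passed at no time.

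The diet difference of Elovl6 also grew between times. From 4 to 24 h the difference moved by -3.36 ± 0.25 log2 units on 1417403_at and by -3.15 ± 0.23 on 1417404_at (limma, adjusted p = 0.00224 for each). From 12 to 24 h it moved by -1.98 ± 0.25 and -2.24 ± 0.23 (limma, adjusted p = 0.0264 and 0.0131). From 4 to 12 h the movement was -1.38 ± 0.25 and -0.91 ± 0.23 with adjusted p of 0.177 and 0.336 in limma, which did not pass. The step from 12 to 24 h lost 1 or both calls without any of 8 single arrays, all 4 of 12 h and all 4 of 24 h.

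Scd2, an isoform of stearoyl-CoA desaturase best known from brain and early skin, had 3 probe sets designed from the same transcript record, so they are not independent of each other. On 1415822_at, the brightest, the CLA pools gave 32474 and 32175 at 4 h, 19899 and 18488 at 12 h, and 14110 and 14592 at 24 h. The LA pools gave 34019 and 33013, then 39621 and 41314, then 42949 and 38444. The CLA pools lay narrowly below LA at 4 h and well below it at 12 and 24 h, with no overlap. On 1415823_at the CLA pools gave 8763 and 5285, then 2173 and 1651, then 1400 and 1514, against LA pools of 8424 and 5821, then 6386 and 6853, then 8913 and 6140. On 1415824_at the CLA pools gave 948 and 907, then 188 and 160, then 201 and 232, against LA pools of 1346 and 1039, then 847 and 503, then 1884 and 903. Both dimmer probe sets had overlapping or adjoining pools at 4 h and separate ones later, and their LA pools of one time differed from each other by more than those of 1415822_at.

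At 12 h the log2 differences of Scd2 were -1.08 ± 0.15, -1.80 ± 0.31 and -1.82 ± 0.36 on 1415822_at, 1415823_at and 1415824_at (limma, adjusted p = 0.0145, 0.0337 and 0.0495). At 24 h they were -1.50 ± 0.15, -2.33 ± 0.31 and -2.51 ± 0.36 (limma, adjusted p = 0.00107, 0.00333 and 0.00462). At 4 h they were -0.05, -0.04 and -0.35, and none passed. The 3 calls of 24 h held without any single array. Those of 12 h did not. 1415822_at lost its call without any of the 4 arrays of 12 h, at -1.13 to -1.02. 1415823_at lost it without those, either CLA pool of 24 h or LA replicate 1 of 4 h, at -1.99 to -1.60. 1415824_at lost it without any array other than the LA pools of 24 h, at -2.19 to -1.45, and adjusted p over all these ran from 0.0508 to 0.212 in limma. Between 4 and 24 h the diet difference moved by -1.45 ± 0.21 on 1415822_at and by -2.29 ± 0.44 on 1415823_at (limma, adjusted p = 0.0168 and 0.0378). On 1415824_at it moved by -2.17 ± 0.52, with an adjusted p of 0.0665 in limma. Not all member calls of the change from 4 to 24 h held without single arrays. From 12 to 24 h no Scd2 probe set passed, with movements of -0.69 to -0.42.

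Scd1, the main stearoyl-CoA desaturase of fat and liver, had 2 probe sets from one transcript record, and only one could be read. On 1415964_at every array gave 87.7% to 100% of the highest value on that array, so the signal was saturated and no difference between diets is read from it. It passed at no time and stays among the 22 tested members in counts of calls. The other, 1415965_at, lay at 21.3% to 38.1% of each array's highest value. Its CLA pools gave 24691 and 23583 at 4 h, 19437 and 19245 at 12 h, and 14273 and 14834 at 24 h, against LA pools of 26283 and 29610, then 22690 and 18882, then 26937 and 23425. The diets overlapped at 12 h and were apart at 24 h, where both CLA pools were the lowest of the 12 arrays. The difference at 24 h was -0.79 ± 0.17 on the log2 scale, or 1.73-fold lower (limma, adjusted p = 0.0189). At 4 and 12 h it was -0.21 ± 0.17 and -0.10 ± 0.17, with adjusted p of 0.894 and 0.860 in limma. The call at 24 h was lost without either CLA pool or LA replicate 1 of 24 h, at -0.81 to -0.69 with adjusted p of 0.0929 to 0.0954 in limma.

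**Figure D2:**
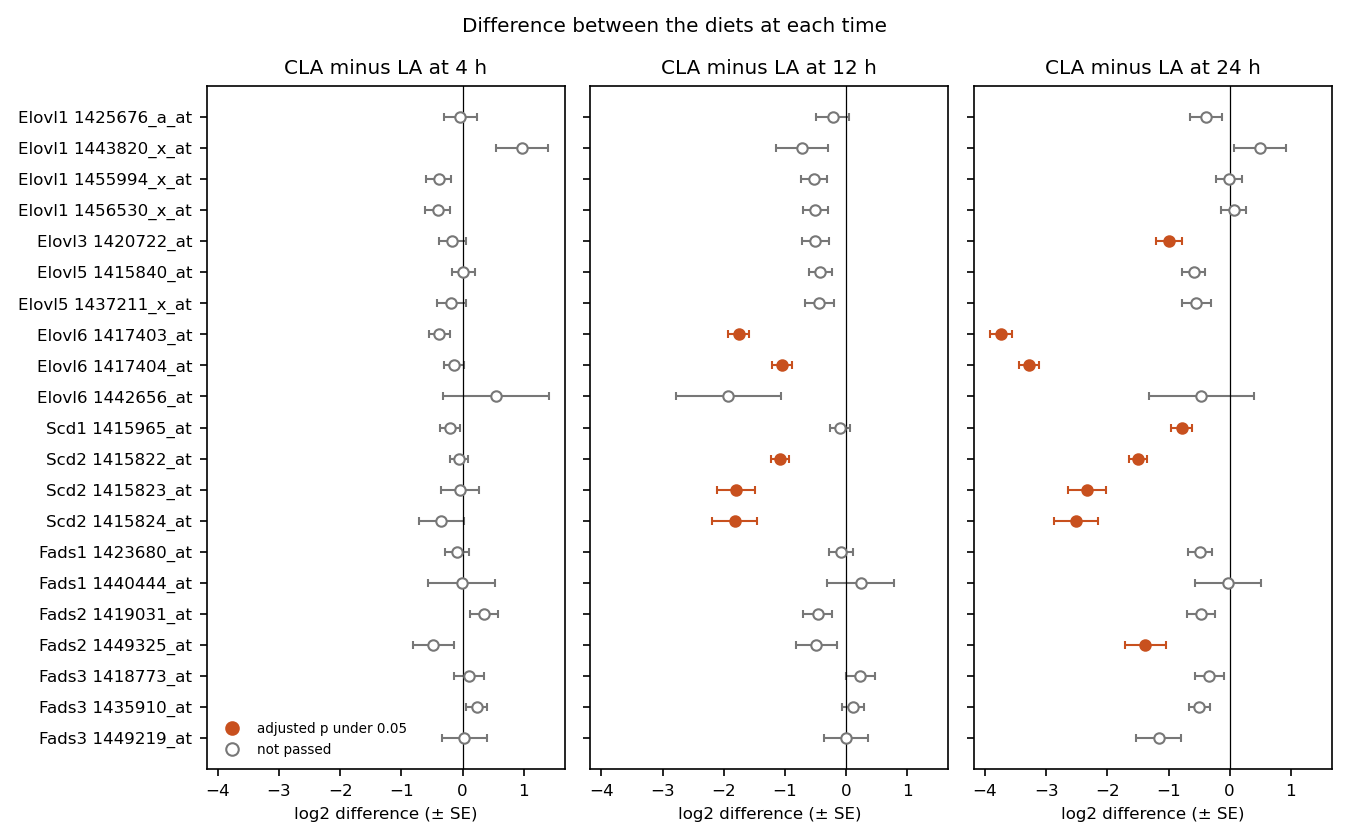
Log2 difference between CLA and LA with its standard error, for the 21 tested probe sets that were not saturated, 1 per line, at 4, 12 and 24 h; filled points passed limma's test at an adjusted p under 0.05. No point is filled at 4 h, 5 are at 12 h and 8 at 24 h, and every filled point lies below 0.

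Elovl3 lengthens saturated and monounsaturated chains and is known from brown fat and skin. On its only probe set the CLA pools gave 439 and 450 at 4 h, 317 and 230 at 12 h, and 195 and 173 at 24 h. The LA pools gave 542 and 461, then 436 and 347, then 427 and 341. Each CLA pool was below each LA pool at every time, by little at 4 h and by most at 24 h. The log2 difference was -0.16 ± 0.22 at 4 h, -0.50 ± 0.22 at 12 h and -0.99 ± 0.22 at 24 h, where it passed at 1.99-fold (limma, adjusted p = 0.947, 0.325 and 0.0214). Without either CLA pool or LA replicate 1 of 24 h it was -1.07 to -0.84 with adjusted p of 0.0731 to 0.126 in limma, and no longer passed. The movement of the difference from 4 to 24 h, -0.83 ± 0.31, did not pass (limma, adjusted p = 0.178). Beside it, 5 of 7 tested brown fat markers were lower in CLA at 24 h, against 7.38% of all tested probe sets. Summed, 8 such markers gave 2517 and 2652 with CLA against 7959 and 9849 with LA. Ucp1, which defines brown and beige fat, did not pass, at -0.32 ± 1.04. The part of these markers in the Elovl3 result was not tested.

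Elovl5, which lengthens polyunsaturated chains, had no probe set past the test at any time. On 1415840_at the CLA pools of 24 h gave 3776 and 3597 against 5740 and 5360 in LA, and on 1437211_x_at they gave 5394 and 5752 against 7676 and 8597. The pools of the diets did not overlap on either probe set at 24 h. The log2 differences there were -0.59 ± 0.19 and -0.54 ± 0.24 (limma, adjusted p = 0.0732 and 0.180), with 95% intervals of -1.02 to -0.16 and -1.10 to 0.02.

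Elovl1 makes very long saturated chains for sphingolipids. Its brightest probe sets, 1456530_x_at and 1455994_x_at, gave 2048 to 4445 and 1739 to 3517 over the 12 arrays. At 24 h their log2 differences were 0.06 ± 0.20 and -0.01 ± 0.21, with intervals of -0.40 to 0.53 and -0.49 to 0.47, and the pools overlapped. At 12 h they were -0.51 ± 0.20 and -0.53 ± 0.21 with adjusted p of 0.283 and 0.277 in limma, and each CLA pool was below each LA pool. 1425676_a_at and the dim 1443820_x_at passed at no time, with differences of -0.39 and 0.49 at 24 h. The ending _x_at marks probe sets whose probes can also bind other transcripts.

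Fads2, the desaturase that acts first on linoleic acid, had 2 tested probe sets from one transcript record, both dim. On 1449325_at the CLA pools gave 164 and 190 at 4 h, 84.5 and 111.2 at 12 h, and 116 and 51.4 at 24 h, against LA pools of 240 and 265, then 181 and 111.5, then 211 and 249. Each CLA pool was below each LA pool at every time, though the nearest pools of 12 h, 111.2 and 111.5, were almost equal. The log2 difference of -1.38 ± 0.34 at 24 h, 2.60-fold, passed (limma, adjusted p = 0.0317). It was lost without CLA replicate 2 or either LA pool of 24 h, or LA replicate 1 of 4 h, at -1.49 to -0.89 with adjusted p of 0.0503 to 0.165 in limma. The other probe set, 1419031_at, gave 111 to 293 over the arrays and -0.47 ± 0.23 at 24 h (limma, adjusted p = 0.222). So the 2 Fads2 probe sets did not give the same call. The size on 1449325_at also depended on the scaling and the source: with no scaling it was -0.64, or 1.55-fold (limma, adjusted p = 0.0779), with 1 factor for all arrays -1.17 (limma, adjusted p = 0.105), and the authors' deposited table gave 1.67-fold with an adjusted p of 0.466.

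Fads1, which makes arachidonic acid in the last desaturation of that pathway, had 1184 and 1442 in the CLA pools of 24 h on 1423680_at against 1780 and 1904 in LA. These pools did not overlap, but the log2 difference of -0.49 ± 0.20 did not pass (limma, adjusted p = 0.143). Its other probe set, 1440444_at, gave 63.6 to 225 and passed at no time.

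Fads3, known for desaturating sphingoid bases, had 3 probe sets, of which 1418773_at and 1449219_at come from the same transcript record. On 1449219_at the CLA pools gave 2452 and 1045 at 4 h, 1365 and 1229 at 12 h, and 610 and 559 at 24 h, against LA pools of 1747 and 1410, then 1447 and 1159, then 1516 and 1163. The 2 CLA pools of 24 h were the lowest arrays and the diets overlapped at the other times. The log2 difference at 24 h was -1.16 ± 0.36 and did not pass (limma, adjusted p = 0.0708). Without CLA replicate 1 or replicate 2 of 4 h, the group with the widest spread between pools, the same difference had an adjusted p of 0.0116 or 0.0117 in limma. On 1435910_at and 1418773_at it was -0.50 ± 0.17 and -0.33 ± 0.24, with adjusted p of 0.0948 and 0.402 in limma.

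Across the members, 0 of 22 probe sets passed at 4 h, where 0.0424% of all 25922 tested did. None of the 22 was under an unadjusted p of 0.05 at 4 h in limma, while 1843 of all probe sets were. The authors' deposited table of that time called none of the 22 at an adjusted p under 0.05. Its unadjusted p was below 0.05, with CLA lower, on 1417403_at (0.00416) and 1417404_at (0.00543) of Elovl6. The same held for 1415965_at of Scd1 (0.0175), 1455994_x_at of Elovl1 (0.0334) and 1415822_at of Scd2 (0.0444), and for no other tested member. For Elovl6 the adjusted p there were 0.472 and 0.569. In that table the share of all probe sets below 0.05 was not counted. These unadjusted values are therefore not read as a result about the members. At 12 h, 5 of 22 passed, all lower in CLA, against 2.09% of all probe sets in either direction and 1.05% lower. At 24 h, 8 of 22 passed, all lower, against 14.4% in either direction and 7.38% lower. Averaged over the times, 7 passed, all lower, against 9.71% in either direction and 4.99% lower. They were Elovl3, the 2 bright probe sets of Elovl6, the 3 of Scd2 and 1449325_at of Fads2. The diet difference moved between 4 and 24 h on 4 of 22, downward, against 3.06% of all in either direction and 1.58% downward. Between 12 and 24 h it did so on 2 of 22, against 0.505% and 0.174%. Between 4 and 12 h it did so on 0 of 22 and 0% of all. For that change 7 members, and 2192 of all 25922 probe sets, were under an unadjusted p of 0.05 in limma.

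Over the 21 tested members that were not saturated, pools of the 2 diets did not overlap, with CLA below, on 8 at 4 h, 14 at 12 h and 16 at 24 h. Over all tested probe sets this held for 15.9%, 25.1% and 28.6%. With CLA above it held for 4, 2 and 1 members, against 15.5%, 23.2% and 32.3% of all. The median log2 difference of the 21 was -0.05 at 4 h, -0.49 at 12 h and -0.54 at 24 h, beside 0.01, -0.0047 and 0.05 for all probe sets. These members share genes, transcript records and pools, so they are not independent of each other. All LA pools are shared between the time comparisons and the comparisons of diets at that time.

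In the LA pools alone, no member passed between any of the times, and neither did any other probe set. The share of all probe sets past the test was 0% for 12 h against 4 h, 24 h against 4 h and 24 h against 12 h. Under an unadjusted p of 0.05 in limma there were 3, 0 and 2 members, and 3947, 2101 and 2566 of all probe sets. On 1417404_at of Elovl6 the LA pools of 24 h differed from those of 4 h by 0.19 log2 units, with a 95% interval of -0.19 to 0.56. On 1415822_at of Scd2 the difference was 0.28, with an interval of -0.06 to 0.61.

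The authors' deposited tables, with their p-values adjusted by Benjamini-Hochberg over 45101 probe sets, called 0, 7 and 12 members lower at 4, 12 and 24 h and none higher. They called 0.364%, 5.09% and 13.0% of all probe sets in either direction. At 12 h the authors' deposited table called the 5 probe sets of Elovl6 and Scd2 named above and also 1455994_x_at and 1456530_x_at of Elovl1, at 1.39-fold and 1.42-fold lower. At 24 h the authors' deposited table also called both probe sets of Elovl5 at 1.45-fold and 1.44-fold, 1423680_at of Fads1 at 1.53-fold, and 1435910_at and 1449219_at of Fads3 at 1.32-fold and 2.58-fold. It did not call Fads2. For Elovl6 at 24 h the authors' deposited table gave 15.4-fold on 1417403_at and 8.07-fold on 1417404_at. The error model behind those p-values is not stated, and it called more members than the fit across pools did.

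The estimated differences of one gene were set beside the brightness of its probe sets. At 24 h the Scd2 differences were -1.50, -2.33 and -2.51 from the brightest to the dimmest probe set, and those of Fads3 were -0.33, -0.50 and -1.16. In Elovl5 the brighter probe set gave -0.54 and the dimmer -0.59, well within their errors. In Elovl1 the order was 0.06, -0.01 and -0.39, so the brightest was not the nearest to 0. To set probe sets of one gene against each other, the log2 ratio of brighter to dimmer was taken within each array, so that scaling drops out, and compared between diets over the 3 times. This comparison was chosen after the values had been seen, for 11 pairs with means of at least 500 and no saturation. For 1417404_at over 1417403_at of Elovl6 the ratio was higher in CLA by 0.47 log2 units (exact permutation within times, two-sided p = 0.0185, adjusted over the pairs 0.102). For 1415822_at over 1415824_at of Scd2 it was higher by 0.68 (exact permutation p = 0.00926, the smallest that 216 permutations can give, adjusted 0.102). No pair passed after adjustment, and the other 9 had adjusted p of 0.178 to 0.806 in the same exact test. With 216 permutations and 11 pairs, 1 pair alone at the smallest p could not have passed, so the lack of calls decides nothing.

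**Figure D3:**
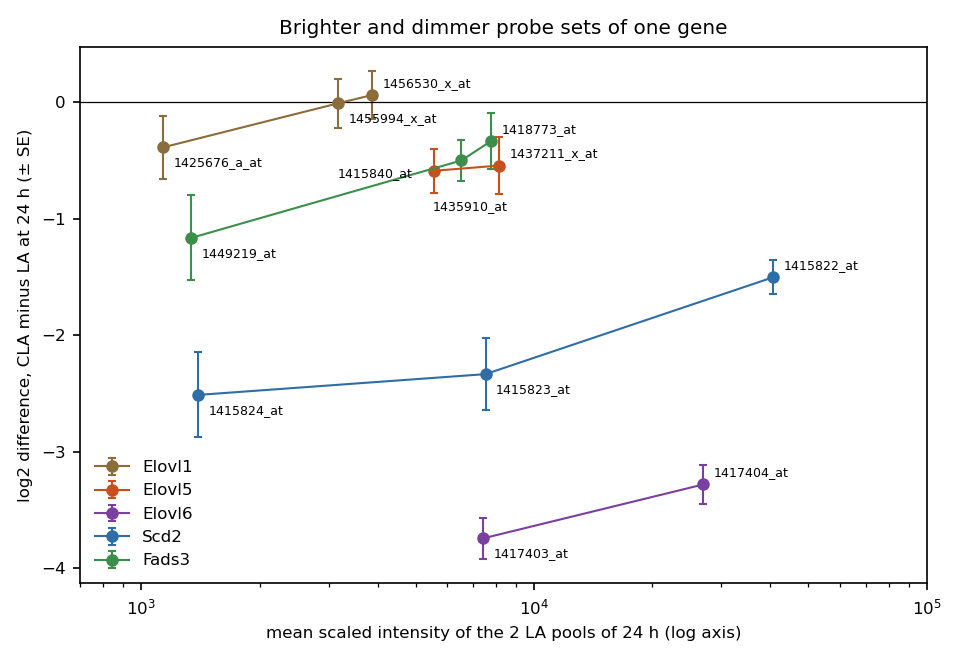
Log2 difference between CLA and LA at 24 h (± SE) against the mean scaled intensity of the 2 LA pools of 24 h (log axis), for the 5 genes with at least 2 unsaturated probe sets whose mean there was 500 or more; lines join probe sets of one gene. The brightest probe set lies nearest to 0 in Elovl6, Scd2 and Fads3, by less than the errors in Elovl5, and not in Elovl1.

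The genes whose log2 values ran most like those of the members over the 12 arrays were sought among 9001 genes with a mean of at least 200. For Elovl6 (1417404_at) they were Nsdhl, a cholesterol synthesis enzyme, with Pearson's r of 0.989, Maob with 0.988 and Cyb5b with 0.988. For Scd2 (1415822_at) they were Morc4 with 0.981, Idh1 with 0.980 and Mogat2 with 0.980. For Scd1 (1415965_at) they were Pgm1 with 0.959, Ppp1ca with 0.957 and Mrpl12 with 0.952. For Elovl3 they were Plgrkt with 0.978, Nit2 with 0.973 and Timm17a with 0.971. These values describe 12 arrays that share diets, times and scaling. For 1419031_at of Fads2, the brighter of its tested probe sets, the nearest gene, Clstn3, reached only 0.913.

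Other genes of the pathway were taken in 6 lists, each given with its count and median. Over all tested probe sets, 1.05% passed as lower at 12 h and 7.38% at 24 h. Of 8 genes that make or carry palmitate and malonyl-CoA or their precursors, 6 fell at 24 h and 0 rose, with a median log2 difference of -1.69 beside 0.05 for all probe sets. At 12 h 1 of the 8 fell, the ATP citrate lyase gene Acly, at -0.997 ± 0.159 (limma, adjusted p = 0.0263), and the median was -0.32. At 24 h Acss2, which makes acetyl-CoA from acetate, was at -3.18 ± 0.20, Acly at -2.15 ± 0.16 and the citrate carrier Slc25a1 at -2.12 ± 0.23. Malic enzyme, Me1, was at -1.90 ± 0.18, acetyl-CoA carboxylase, Acaca, at -1.48 ± 0.16 and fatty acid synthase, Fasn, at -1.44 ± 0.19. Acacb and Mcat, at -1.13 and -0.69, did not pass. In limma these 6 had adjusted p of 2.38e-04 to 0.00317.

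For Fasn the pools of 12 h gave 44704 and 42793 in CLA and 44548 and 43593 in LA, and overlapped. Its probe set was bright, with 70857 in CLA replicate 1 of 4 h. On the same array the saturated Scd1 probe set gave 89712. Differences of Fasn may be understated at such brightness, and its overlap is not set against Elovl6 and Scd2. The brightest Scd2 probe set, 1415822_at, reached up to 59.4% of an array's highest value, so its differences may be understated too. For Acss2 the CLA pools gave 36317 and 31268 at 4 h, 16832 and 13606 at 12 h, and 4060 and 3035 at 24 h. Its LA pools lay between 25626 and 32852 at all times. The 4 h pools of Acss2 overlapped, and the later ones were apart.

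The elongation cycle needs reductases and dehydratases beside the ELOVL enzymes. Of 6 such genes 0 passed at 12 h, and 2 fell at 24 h: Tecr, the reductase of the last step, at -1.63 ± 0.27, and the dehydratase gene Hacd2 at -0.75 ± 0.17 (limma, adjusted p = 0.00757 and 0.0229). The median of the 6 was -0.62. A list of 6 genes was taken for the electron carriers of the desaturases, without regard to where in the cell they act. In this list Cyb5b fell by 1.80 ± 0.15 and the reductase gene Cyb5r1 rose by 1.45 ± 0.26 at 24 h (limma, adjusted p = 6.66e-04 and 0.00985). Cyb5a and Cyb5r3, the carriers best known from the endoplasmic reticulum, were at -0.08 and -0.13 and did not pass. Of 8 other elongases and desaturases listed, 3 were tested, Elovl7, Scd3 and Degs1, and none passed at any time. At 24 h Degs1 was at -0.43 ± 0.20 and Scd3 at -0.41 ± 0.30.

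Of 3 acyl-CoA synthetases tested, Acsl3 fell at 12 h by 1.38 ± 0.22 and at 24 h by 0.93 ± 0.22 (limma, adjusted p = 0.0276 and 0.0295), while Acsl4 and Acsl5 did not pass. Among 11 regulators of these pathways, 2 fell at 12 h and 6 fell and 1 rose at 24 h. At 12 h these were Mid1ip1, an activator of acetyl-CoA carboxylase, at -2.35 ± 0.34, and Mlxipl, which encodes the carbohydrate-response factor ChREBP, at -1.53 ± 0.29. Srebf1, which encodes SREBP-1, was at -1.65 ± 0.34 at 12 h without passing and at -1.48 ± 0.34 at 24 h, where it passed (limma, adjusted p = 0.0548 and 0.0263). At 24 h Thrsp, Mlxipl, Nr1h3, Mid1ip1 and Pparg were also lower, at -2.33, -2.002, -1.34, -1.31 and -0.92. Srebf2, which encodes the sterol-regulated factor SREBP-2, rose by 1.44 ± 0.33 (limma, adjusted p = 0.0264). In all 6 pathway lists 0 genes passed at 4 h.

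**Figure D4:**
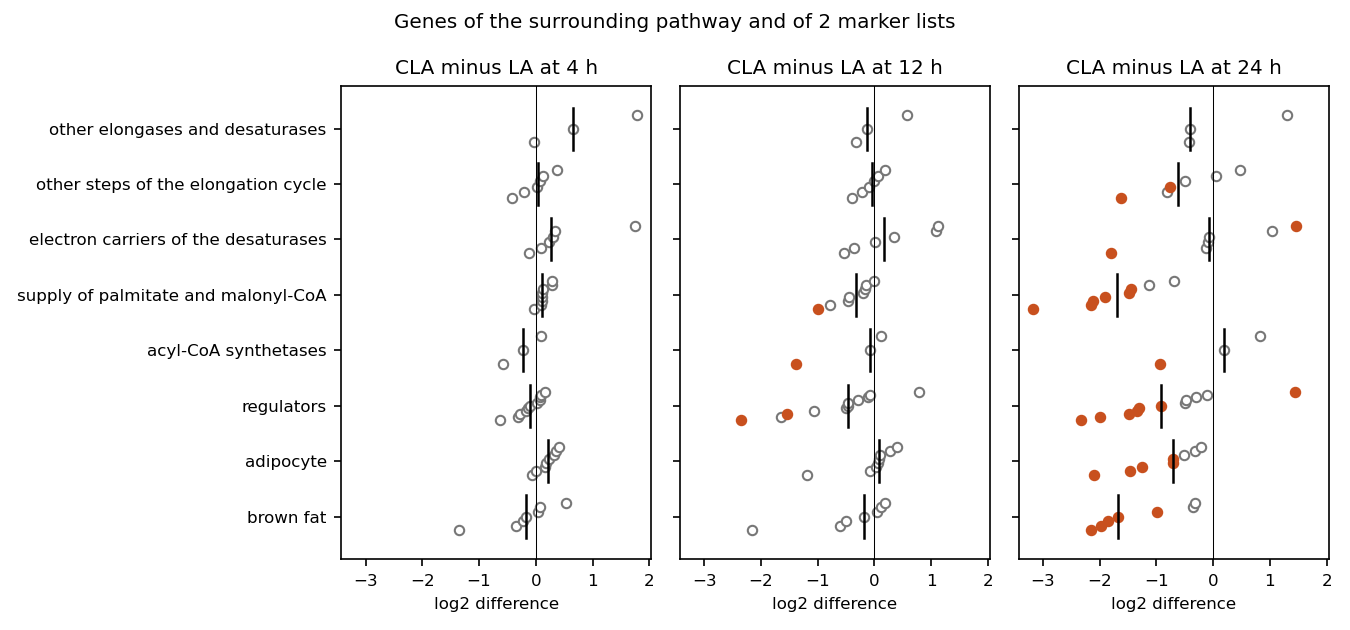
Log2 difference between CLA and LA at 4, 12 and 24 h for the genes of 6 pathway lists and of the adipocyte and brown fat marker lists; each point is 1 gene by its brightest probe set, filled where it passed limma's test at an adjusted p under 0.05, and bars are list medians. At 24 h the medians of substrate supply and of brown fat markers lie near -1.69 and -1.67.

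Marker lists of cell types were set beside these results at 24 h, when 7.38% of all tested probe sets passed as lower. Those passing as higher were 1810 of 25922, and 14.4% passed in either direction. Of 8 adipocyte markers tested 5 were lower, with a median of -0.71, and their summed intensity was 215255 and 216059 with CLA against 298161 and 332655 with LA. At 12 h 0 of the 8 passed and the sums overlapped, at 266470 and 289479 in CLA and 267867 and 285464 in LA. Fabp4, the largest part of these sums, gave 75269 and 68981 in CLA and 71219 and 69607 in LA at 12 h. These values lay above those of the saturated Scd1 probe set on the same arrays. The sums can therefore hide or understate a difference. At 24 h macrophage markers had 3 of 10 higher, with sums of 33934 and 39977 in CLA and 22573 and 26520 in LA. Neutrophil markers had 3 of 5 higher, with sums of 2473 and 3450 against 693 and 762. The liver list had 2 of 6 lower at 24 h, with sums of 2187 and 3667 against 7764 and 12028. The kidney and adrenal list had 1 of 2 tested higher, Star at 3.23 ± 0.21, the fibroblast and preadipocyte list 1 of 6 and endothelium 0 of 5. Muscle markers had 0 of 8 past the test, yet their sums at 12 h were 3655 and 5595 in CLA against 1550 and 1615 in LA. The part of these markers in the members' differences was not tested. In pooled tissue, fewer cells of a type and less RNA per cell cannot be told apart.

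Scaling decided part of the split over all probe sets at 24 h, where 1912 were lower and 1810 higher. With no scaling the split was 1203 lower and 3190 higher, with the median of all at 0.18, and with 1 factor for all arrays it was 694 and 1718, with the median at 0.26. Under both, Elovl3, 1415965_at of Scd1 and 1449325_at of Fads2 no longer passed, and the 5 bright probe sets of Elovl6 and Scd2 still did. At 12 h the split went from 272 lower and 269 higher to 617 and 293 with no scaling.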

How the data were processed

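RNA of 12 adipose pools was extracted with Trizol and made into biotinylated cRNA, per the labels' protocols. The authors deposited 1 linear intensity per probe set and array, unscaled, with 15.7% to 18.8% of an array's values at or below 0. How probes were summarised is not given in the sources used here. The authors also deposited, per the file headers, a ratio, a fold, a log10 ratio, its error and p-values by time, without naming the test. Their 6 group intensity columns were not used. The ratios were read as CLA over LA, since they ran with the log2 differences of the same time at r of 0.878, 0.964 and 0.977 over 10240 probe sets, and at 0.537 or less with those of another time.

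Each array was scaled to a trimmed mean of 500, leaving out 2% at each end. Negative values were set to 0, 16 was added and log2 taken, so folds of dim probe sets are understated. The 64 control probe sets and those below 100 on all but 1 array or on all arrays were left out, and 25922 of 45101 remained. All 6 groups were fitted together by lmFit and eBayes of limma 3.58.1 (R 4.3.3), with 6 residual and 2.14 prior degrees of freedom. Tests were two-sided, and p-values were adjusted by Benjamini-Hochberg over all probe sets, with a threshold of 0.05. The model fit was tried on simulated data for the diet contrast of 24 h only. Precision is limited by the 2 arrays per group.

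The annotation gave 1 symbol to 34945 probe sets, several to 932 and none to 9160. A list gene was represented by its brightest tested probe set. From a list, up to 5 passing genes with the smallest p were to be named. The 6th supply gene, the further regulators, Acacb, Mcat, Cyb5a, Cyb5r3, Fasn at 12 h and Ucp1 were named after their values were seen. The members, lists and tests were chosen with earlier results of these data known. Promoter sequences are from RefSeq. The alternatives covered scaling, offset, filter, prior, probe set choice, the groups fitted, a replicate block, the authors' ratios and leaving out each array.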

Additional observations from a re-analysis of the deposited data

Results flagged for a closer look

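The diet difference was not the same at each time for Elovl6 and Scd2, by limma's test of the change of the difference between times. From 4 to 24 h it changed by -3.36 log2 units on 1417403_at of Elovl6 and by -3.15 on 1417404_at, each with an adjusted p of 0.00224 in limma. Over the same times it changed by -1.45 on 1415822_at of Scd2 and by -2.29 on 1415823_at, with adjusted p of 0.0168 and 0.0378 in limma. From 12 to 24 h it changed by -1.98 on 1417403_at and by -2.24 on 1417404_at, with adjusted p of 0.0264 and 0.0131 in limma. The 4 calls from 4 to 24 h did not all hold without any single array other than CLA replicate 2 of 4 h. More of them were lost without an LA pool of 4 h or a CLA pool of 24 h than without the other arrays. The 2 calls from 12 to 24 h fell to 0 without CLA replicate 1 of 12 h, 1 of the LA pools of that time or 1 of the CLA pools of 24 h. They fell to 1 without CLA replicate 2 of 12 h or 1 of the LA pools of 24 h. These comparisons share the pools of 24 h, so they are not independent of each other.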

How the results depend on the processing

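No member passed at 4 h or between times of LA under any alternative. Leaving out single arrays gave 1 to 5 calls at 12 h, 5 to 9 at 24 h, 5 to 7 for the average, 2 to 5 for the change from 4 to 24 h and 0 to 2 for that from 12 to 24 h. At 12 h the 5 calls became 1 without any of the 4 arrays of that time, 2 without either CLA array of 24 h and 3 without LA replicate 1 of 4 h. At 24 h the 8 became 5 without CLA replicate 2 or LA replicate 1 of that time. Of the 5 calls of 12 h, 1 held whichever array was left out and 0 held under every alternative, and of the 8 of 24 h, 5 and 4 did. With 1 scaling factor for all arrays, an alternative chosen after seeing the data, the calls were 1 at 12 h, 5 at 24 h, 2 for 4 to 24 h and 0 for 12 to 24 h. With 1 probe set per gene, which tests 9 members, they were 2, 3, 2 and 1, and 3 for the average. Over all 12593 genes tested in this way they were 567, 2740, 880 and 291, and 1918 for the average. With only the groups compared in the fit, which leaves fewer arrays to estimate the spread, they were 0, 4, 2 and 0. With no filter there were 3 at 12 h. With a trended, robust prior there were 4 for 4 to 12 h, where there had been 0, and 7 for 4 to 24 h. Except where the construction is named, the cause was not tested.

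Over 15 pairs of groups the deviations of same-numbered pools correlated at -0.37 to 0.42, 11 of them above 0.1 and 1 below -0.1. For CLA with LA of the same time they correlated at 0.31, 0.42 and -0.04 at 4, 12 and 24 h. As not every pair was above 0.1, the numbers were not taken to pair the pools. With the replicate number as a block the calls were 0 at 4 h, 5 at 12 h, 9 at 24 h, 6 for the average, 0 for 4 to 12 h, 5 for 4 to 24 h, 2 for 12 to 24 h and 0 in LA. The block added 1449219_at of Fads3 at 24 h (limma, adjusted p = 0.0339) and 1415824_at of Scd2 from 4 to 24 h (0.0473), and removed 1449325_at of Fads2 from the average (0.0567).

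Some uncalled differences of 24 h passed under alternatives, with the same sign. 1449219_at of Fads3 did so under 7 of 24, among them no scaling at -0.84 (limma, adjusted p = 0.0393), a minimum of 200 (0.0364) and the other prior (0.0114). 1415840_at of Elovl5 did so under 4 of 24, with a common median at -0.66 (limma, adjusted p = 0.0480), a minimum of 200 (0.0379), the other prior (0.0147) and in the authors' deposited table. 1435910_at of Fads3 passed with the other prior (limma, adjusted p = 0.0224) and in that table. No uncalled difference of 4 h passed, and the other gains at 12 and 24 h were in the authors' deposited table alone.

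No called difference changed sign. Among uncalled ones the sign changed under at least 1 alternative on 9 of 22 probe sets at 4 h, 6 of 17 at 12 h and 5 of 14 at 24 h. For 1455994_x_at of Elovl1 at 24 h, reported as -0.01, it was 0.20 with no scaling, 0.21 with 1 factor, 0.0274 with quantile normalization and 0.0514 in the authors' deposited table, and -0.12 to 0.10 without single arrays. For 1456530_x_at at 24 h it was -0.0117 with a common median. Without single arrays, 1415823_at of Scd2 at 4 h ran from -0.40 to 0.32 and 1415965_at of Scd1 at 12 h from -0.23 to 0.0346.

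Over all probe sets, 541 calls at 12 h became 910 with no scaling, 129 with 1 factor, 1088 with a minimum of 200, 1344 with the other prior, 0 with only the groups compared and 2296 by the authors' ratios. At 24 h, 3722 became 2412 with 1 factor, 711 with only the groups compared and 5837 by the authors' ratios, and a common median split 3616 into 2141 lower and 1475 higher.

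The spread rested on 2 pools a group, and the largest was in CLA at 4 h. Fads2 and the dimmest Elovl6 and Fads1 probe sets lay near the filter of 100, so their folds depend on the offset. The bright Scd1 probe set was saturated, and no difference can be read from it. Diet and cell composition cannot be told apart in pooled tissue.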
